A study of Homo sapiens with 6 samples.

Results

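Sterol transport genes were examined by RNA sequencing of poly(A) transcripts from HCT116, a long-established colorectal carcinoma line, in 3 shPRSS22 libraries and 3 shCtrl libraries. The set holds 9 of the 17269 genes in the deposited table, picked by gene symbol: GRAMD1A, GRAMD1B, OSBP, NPC1, NPC2, ABCA1, ABCG1, SOAT1 and NR1H2. It was drawn up around the higher GRAMD1B count in shPRSS22 libraries, with the results of the same contrast known for the other members, so the differences between groups given for these 9 genes are descriptions and not tests. The shPRSS22 cells carry a short hairpin RNA against PRSS22, a gene for a secreted trypsin-like serine protease, and their genotype is labelled PRSS22 knockdown. The shCtrl cells are named for a control hairpin in the titles but labelled WT. All 6 libraries come from the same line in RPMI1640 with serum. The labels give neither the hairpin sequence, nor the time after its introduction, nor whether a group is 1 clone or several cultures. If replicates were not separate cultures, the spread between libraries is technical only.

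Cells move cholesterol between membranes mostly by protein carriers at contact sites rather than in vesicles. Aster proteins, encoded by the GRAMD1 genes, sit in the endoplasmic reticulum and draw accessible cholesterol from the plasma membrane, while OSBP carries cholesterol from the endoplasmic reticulum to the Golgi in exchange for a phosphoinositide. NPC2 and NPC1 pass cholesterol out of the lysosome, SOAT1 esterifies it for storage in lipid droplets, and ABCA1 and ABCG1 export it. LXR beta, the product of NR1H2, is a nuclear receptor that senses oxysterols and controls ABCA1 and ABCG1.

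Libraries held 15332444 to 15466657 estimated counts in shPRSS22 and 14920539 to 15164321 in shCtrl. PRSS22 itself stood at 3.09, 3.16 and 2.61 CPM in shPRSS22 replicates 1 to 3, against 10.1, 9.38 and 10.1 CPM in shCtrl replicates 1 to 3, where CPM is the count per 1000000 of the library's scaled total (log2 fold change -1.74, SE 0.14; adjusted p = 4.78e-12 by edgeR's quasi-likelihood test). Of 7 epithelial markers, EPCAM had 5093 to 5425 counts in every library. VIL1 had 23, 10 and 0 counts in shPRSS22 replicates 1 to 3, against 0, 7 and 6 in shCtrl replicates 1 to 3, too few to be tested. Of 10 fibroblast, immune and endothelial markers, PTPRC, COL1A2 and DCN had 0 to 2 counts per library, and the summed level of all 10 was 46.2 to 55.2 CPM, unscaled, in shPRSS22 and 39.5 to 48.7 CPM in shCtrl, most of it COL1A1 and CD68. Of these 10 markers 3 had enough counts to be tested, and CD68 was called higher (log2 fold change 0.24), with overlapping groups. That is 33.3% of the 3, against 19.9% of all tested genes called higher. Of the 6 epithelial markers tested, CDH1 was called higher (0.15), which is 16.7%, near the 19.9% of all tested genes. The intestinal differentiation markers in the table summed to 45.9 to 49.7 CPM, unscaled, in shPRSS22 and 36.4 to 38.9 CPM in shCtrl, most of it CA2. Only KRT20 (1.29) and CA2 (0.29) were tested, and both were called higher, against 19.9% of all tested genes. KRT20 had 53, 23 and 24 counts in shPRSS22 replicates 1 to 3, against 13, 15 and 12 in shCtrl replicates 1 to 3, so replicate 1 of shPRSS22 was also the highest for this marker. In the same library, FABP1 had 13 counts and SLC26A3 had 16, with 0 for both in the other 5 libraries. MUC2 had 5 counts in this library and 0 or 1 in each of the others. Without that library the log2 fold change of GRAMD1B was 1.39, against 1.38 with it, those of NPC1 and NR1H2 were 0.28 and -0.19, and 3 of the 9 genes were called higher and 1 lower. The part these markers have in the other differences was not tested, and in bulk RNA fewer cells of a type and less RNA per cell cannot be told apart.

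All 9 genes passed the filter on low counts. Of them, 4 were called higher and 1 lower by the fit across all 13104 tested genes (edgeR quasi-likelihood test, adjusted p under 0.05), and 4 were not called. Among all tested genes, 19.9% were called higher and 19.3% lower. The genes called higher were GRAMD1B, NPC1, SOAT1 and GRAMD1A, and NR1H2 was called lower. DESeq2 called only GRAMD1B and NPC1 higher, as did the edgeR fit without shCtrl replicate 1 and that without shCtrl replicate 3, while NR1H2 was called lower in each. In the authors' deposited table, GRAMD1B, NPC1 and NR1H2 have q-values under 0.05, that of NR1H2 being 0.0498. The libraries of the groups did not overlap for 7 of the 9 genes, 6 higher and 1 lower, against 48.6% of all tested genes in either direction. The median log2 fold change of the 9 genes was 0.09, against -0.01 over all tested genes, and the median size of the change, whatever its sign, was 0.12 for the 9 genes against 0.14 over all tested genes. Only GRAMD1B differed by more than 1.5-fold.

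**Figure D1:**
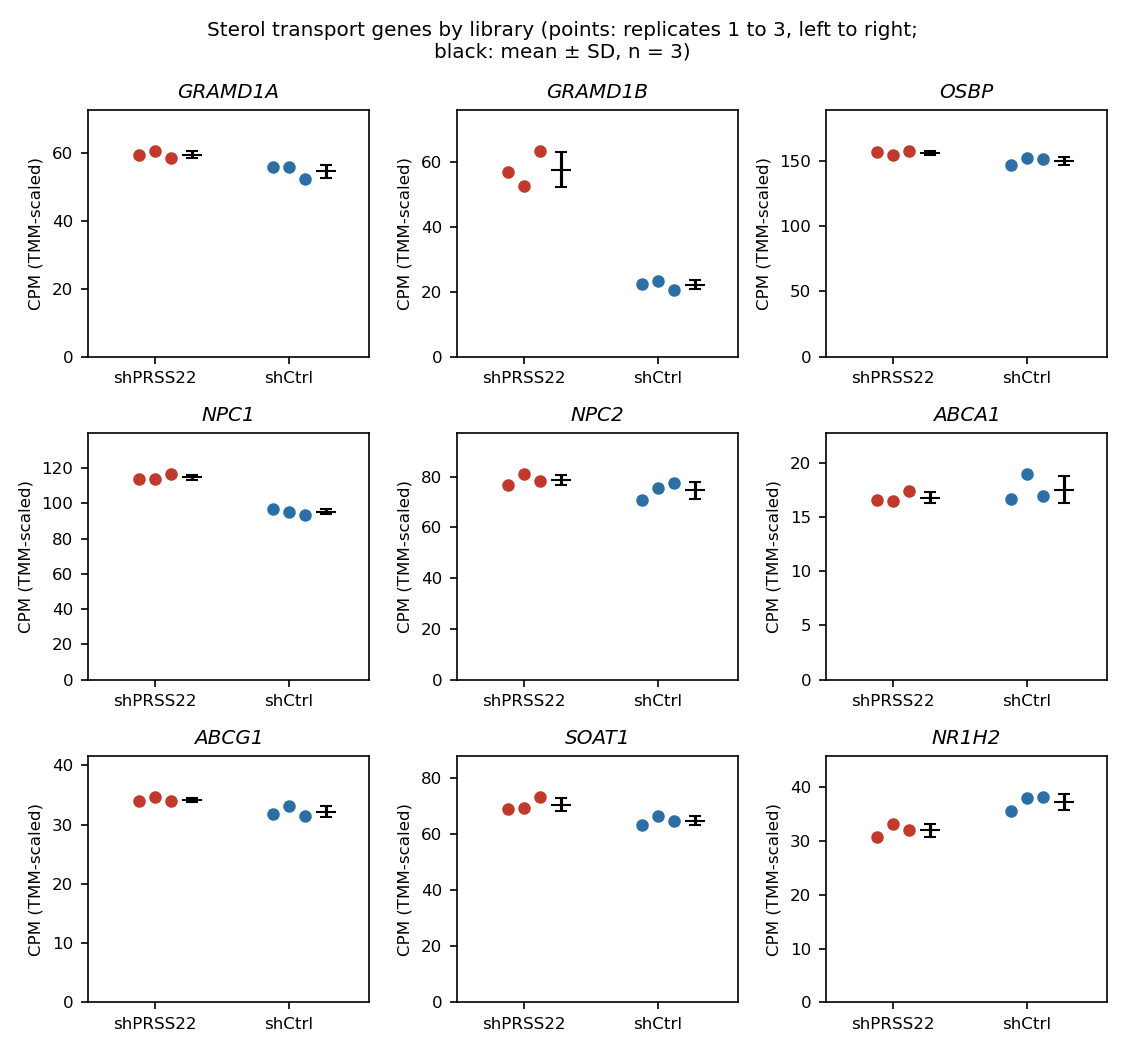
Level of each of the 9 genes in every library, in TMM-scaled CPM on linear axes from 0, with shPRSS22 (red) left of shCtrl (blue), replicates 1 to 3 from left to right, and mean ± SD (n = 3) in black. GRAMD1B stands apart, at 52.5 to 63.2 CPM in shPRSS22 and 20.6 to 23.2 CPM in shCtrl, while the other 8 genes differ by small amounts.

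GRAMD1B, the gene for Aster-B, was higher in every shPRSS22 library. It had 882, 799 and 968 estimated counts in shPRSS22 replicates 1 to 3, against 337, 352 and 312 in shCtrl replicates 1 to 3. In CPM these were 56.8, 52.5 and 63.2 in shPRSS22 and 22.5, 23.2 and 20.6 in shCtrl. The lowest shPRSS22 library was above the highest shCtrl library, and shPRSS22 replicate 3 was the highest of all. The means were 57.5 ± 5.39 CPM in shPRSS22 and 22.1 ± 1.35 CPM in shCtrl (SD, n = 3 each), a 2.60-fold difference (log2 fold change 1.38, SE 0.07). By log2 fold change it ranked 31 of 13104 genes, and leaving out each library in turn gave 1.31 to 1.44. Its spread between shPRSS22 libraries was wider than that of any other member in that group: the coefficient of variation was 9.37%, where counting alone gives 3.37%, while in shCtrl it was 6.12%, where counting gives 5.47%. The gene is annotated on the plus strand at chr11:123358428-123627774 (GRCh38, GENCODE release 29), with 18 annotated transcripts and no exonic base shared with another gene. The deposited counts and FPKM together imply an effective transcript length of 6993 to 7277 bases across libraries, with overlapping groups, near the longest annotated transcript of 7723 bases.

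GRAMD1A, the gene for Aster-A, stood at 59.3, 60.4 and 58.5 CPM in shPRSS22 replicates 1 to 3, against 55.7, 55.7 and 52.3 CPM in shCtrl replicates 1 to 3. The groups did not overlap, but the difference was small, 59.4 ± 0.979 CPM in shPRSS22 against 54.6 ± 1.93 CPM in shCtrl (SD, n = 3 each; log2 fold change 0.12, SE 0.05). The gene is annotated on the plus strand at chr19:34994784-35026471 (same build and annotation, as for the genes below). The call was lost in 5 of the 6 fits that left out a library and was kept without shPRSS22 replicate 3. Of its exonic bases, 2.09% are shared with antisense genes. No strand marking is described, so whether these libraries can tell them apart is not known.

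On the TPM scale, which adjusts for transcript length and allows genes to be compared, the balance among the Aster genes differed between the groups. GRAMD1B had 13.0, 11.3 and 14.1 TPM in shPRSS22 and 5.10, 5.05 and 4.57 TPM in shCtrl. GRAMD1A had 40.3, 39.5 and 39.4 TPM in shPRSS22 and 37.2, 36.8 and 35.4 TPM in shCtrl. GRAMD1C, the gene for Aster-C and not a member of the set, had 11.8, 9.74 and 12.9 TPM in shPRSS22 and 9.93, 10.9 and 10.3 TPM in shCtrl, with overlapping groups. GRAMD1A was thus the most abundant Aster transcript in all 6 libraries. GRAMD1B made up 19.9 ± 1.32% of the summed TPM of the 3 genes in shPRSS22 and 9.47 ± 0.353% in shCtrl (SD, n = 3 each). The sum itself was 64.0 ± 3.05 TPM in shPRSS22 and 51.8 ± 1.29 TPM in shCtrl. GRAMD1C was not called (log2 fold change 0.14, SE 0.08; edgeR quasi-likelihood test, adjusted p = 0.155), but this rests on single libraries: it was called higher without shPRSS22 replicate 2 (0.22, adjusted p = 0.021), and the value was 0.06 without shPRSS22 replicate 3.

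**Figure D2:**
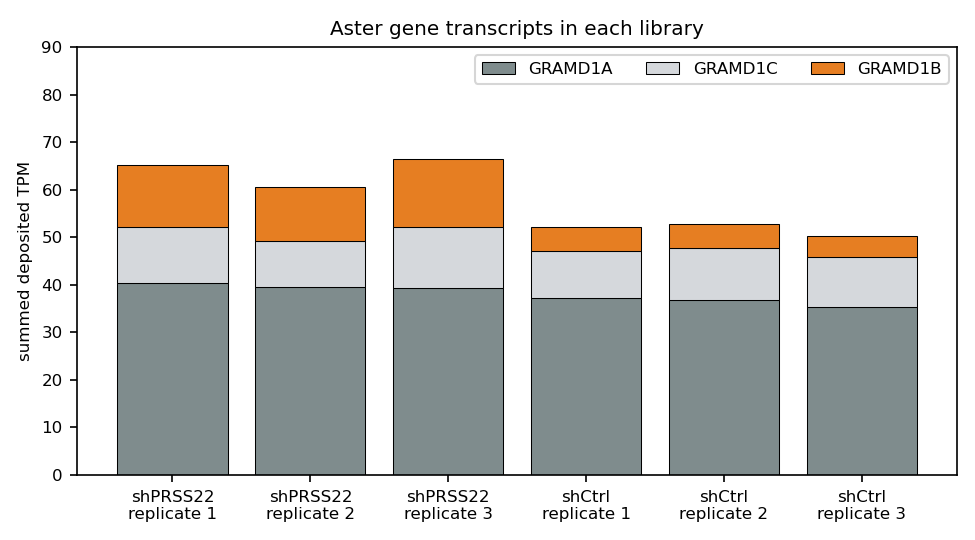
Deposited TPM of GRAMD1A, GRAMD1C and GRAMD1B stacked for each library, with shPRSS22 replicates left of shCtrl replicates and the axis from 0. The GRAMD1B segment is 11.3 to 14.1 TPM in shPRSS22 and 4.57 to 5.10 TPM in shCtrl, while GRAMD1A stays the largest segment.

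The genes whose pattern was most like that of GRAMD1B were found by the root mean square difference in log2 CPM over the 6 libraries, each gene centred on its own mean, among 11155 other genes with a mean of at least 5 CPM. They were MMP1, interstitial collagenase (difference 0.0703), FSD1 (0.0866), OSGIN1, an oxidative stress response gene (0.0870), INHBE, an inhibin beta subunit (0.0880), and TXNRD1, cytosolic thioredoxin reductase (0.0893). The measure takes in the difference between the groups, so it ranks genes with a rise of like size: the log2 fold changes were 1.36 for MMP1, 1.31 for FSD1, 1.48 for OSGIN1, 1.56 for INHBE and 1.26 for TXNRD1.

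RefSeq promoter windows of 250 bases before an annotated start (build GRCh38.p14) were searched on both strands for the motifs of regulators known for sterol or stress genes. Such a start need not be that of the GENCODE gene. The windows of OSBP, NPC1, NPC2, NR1H2 and the downstream start of GRAMD1A lie inside the gene spans given here. Those of ABCA1 and SOAT1 lie partly inside. Windows were matched for 7 of the 9 genes, 9 windows in all, with a pair each for GRAMD1A and NPC2. GRAMD1B and ABCG1 had no entry. The antioxidant response element core TGACNNNGC, bound by NRF2 with small MAF proteins, was found in 4 of the 9 windows, both of GRAMD1A and 1 each of NPC2 and SOAT1, and in 10.9% of all 35114 windows. The E-box CACGTG was found in 1 of the 9 and in 6.35% of all windows, and the sterol regulatory element core TCACNCCAC in none of the 9 and in 0.883% of all. A direct repeat of the LXR half-site, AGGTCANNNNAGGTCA with up to 2 mismatches in its 12 fixed letters, was found in 1 of the 9 and in 2.03% of all. No match overlapped another in these windows. The GC content of the 9 windows was 56.8% to 73.6%, against a median of 58% for all windows. The windows of the NPC2 pair overlap each other. The part of GC content in the number of matches was not tested. A match is a description of letters, and binding was not measured. The window of the downstream start of GRAMD1A, at chr19:35000073-35000322 on the plus strand, holds the antioxidant response element core at 2 places, shown in capitals, 67 and 31 bases before the start.
GRAMD1A: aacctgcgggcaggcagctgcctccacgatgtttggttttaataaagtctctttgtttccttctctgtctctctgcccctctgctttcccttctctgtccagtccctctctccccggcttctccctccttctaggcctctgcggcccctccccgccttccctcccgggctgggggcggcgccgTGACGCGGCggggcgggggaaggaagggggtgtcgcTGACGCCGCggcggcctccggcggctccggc

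OSBP, the oxysterol-binding protein, differed little. It stood at 157, 155 and 157 CPM in shPRSS22 replicates 1 to 3, against 147, 152 and 151 CPM in shCtrl replicates 1 to 3, without overlap. The means were 156 ± 1.59 CPM in shPRSS22 and 150.2 ± 2.99 CPM in shCtrl (SD, n = 3 each; log2 fold change 0.06, SE 0.03), and the gene was not called. It is annotated on the minus strand at chr11:59574398-59616144.

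NPC1, the membrane protein that takes cholesterol from NPC2 at the lysosomal membrane, was the member with the next largest difference after GRAMD1B. It stood at 114, 114 and 117 CPM in shPRSS22 replicates 1 to 3, against 96.5, 95.4 and 93.6 CPM in shCtrl replicates 1 to 3. The groups did not overlap and the libraries within each lay close together. The means were 115 ± 1.58 CPM in shPRSS22 and 95.2 ± 1.46 CPM in shCtrl (SD, n = 3 each; log2 fold change 0.27, SE 0.04), and the call was kept in all 11 alternatives run. On the minus strand at chr18:23506184-23586898, NPC1 shares 604 exonic bases, 5.98% of its exonic sequence, with RMC1 on the opposite strand, and RMC1 was also higher, at 58.6 ± 0.501 CPM in shPRSS22 and 46.3 ± 1.75 CPM in shCtrl (log2 fold change 0.34, SE 0.05; adjusted p = 1.51e-06 by edgeR's quasi-likelihood test). The part of the shared bases in either difference was not tested. The NPC1 window at chr18:23586507-23586756 on the minus strand holds none of the motifs searched and is shown for comparison with that of GRAMD1A.
NPC1: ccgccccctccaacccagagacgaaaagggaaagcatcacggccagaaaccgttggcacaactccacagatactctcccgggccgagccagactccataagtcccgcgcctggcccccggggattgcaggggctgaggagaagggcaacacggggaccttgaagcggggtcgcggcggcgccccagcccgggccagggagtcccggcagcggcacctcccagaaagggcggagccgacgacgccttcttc

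NPC2, the soluble lysosomal carrier, had 76.7, 80.9 and 78.2 CPM in shPRSS22 replicates 1 to 3, against 70.8, 75.5 and 77.5 CPM in shCtrl replicates 1 to 3. The groups overlapped, the highest shCtrl library being above the lowest shPRSS22 library, and the gene was not called (log2 fold change 0.08, SE 0.04). On the TPM scale it was the most abundant of the 9 genes in each library, at 244 ± 1.34 TPM in shPRSS22 and 229 ± 8.81 TPM in shCtrl (SD, n = 3 each). NPC2 transcript exceeded NPC1 transcript by 5.94 ± 0.203-fold in shPRSS22 and 6.76 ± 0.330-fold in shCtrl. It is annotated on the minus strand at chr14:74476192-74494177, and its exons share 6.37% of their bases with other genes, among them ISCA2 on the opposite strand.

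SOAT1, the sterol O-acyltransferase of the endoplasmic reticulum, stood at 69.1, 69.4 and 73.2 CPM in shPRSS22 replicates 1 to 3, against 63.2, 66.4 and 64.7 CPM in shCtrl replicates 1 to 3. The groups did not overlap. The means were 70.6 ± 2.30 CPM in shPRSS22 and 64.8 ± 1.57 CPM in shCtrl (SD, n = 3 each; log2 fold change 0.12, SE 0.05). The call was kept in 3 of the 6 fits that left out a library and lost without shPRSS22 replicate 3, shCtrl replicate 1 or shCtrl replicate 3. On the TPM scale the gene stood at 25.9 ± 0.984 in shPRSS22 and 22.5 ± 0.475 in shCtrl. The effective transcript length implied by its counts and FPKM was shorter in shPRSS22, at a mean of 4361 bases against 4569 bases in shCtrl, without overlap, so the levels on the TPM and CPM scales are not proportional. SOAT1 is annotated on the plus strand at chr1:179293714-179358680. Its window, at chr1:179293547-179293796 on the plus strand, holds the antioxidant response element core in capitals 50 bases before the start.
SOAT1: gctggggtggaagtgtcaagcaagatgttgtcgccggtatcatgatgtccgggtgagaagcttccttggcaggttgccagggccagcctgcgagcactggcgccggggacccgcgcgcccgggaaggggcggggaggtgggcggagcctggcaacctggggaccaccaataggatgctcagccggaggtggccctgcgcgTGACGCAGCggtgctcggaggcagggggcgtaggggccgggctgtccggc

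ABCA1 and ABCG1, the exporters to lipid-poor apolipoproteins and to high-density lipoprotein particles, were not called. ABCA1 had 16.5, 16.5 and 17.4 CPM in shPRSS22 replicates 1 to 3, against 16.6, 19.0 and 17.0 CPM in shCtrl replicates 1 to 3, with overlapping groups (log2 fold change -0.06, SE 0.08). ABCG1 had 33.9, 34.6 and 34.0 CPM in shPRSS22 replicates 1 to 3, against 31.8, 33.2 and 31.5 CPM in shCtrl replicates 1 to 3. Its groups did not overlap, but by less than 1 CPM (log2 fold change 0.09, SE 0.06). ABCG1 transcript exceeded ABCA1 transcript by 3.99 ± 0.227-fold in shPRSS22 and 3.53 ± 0.212-fold in shCtrl on the TPM scale (SD, n = 3 each). The effective length implied for ABCG1 was 4986 to 5367 bases across libraries, above its longest GENCODE transcript of 3475 bases. Its TPM and this ratio rest on that length. ABCA1 is annotated on the minus strand at chr9:104781002-104928237 and ABCG1 on the plus strand at chr21:42199689-42297244. ABCA1 is the member with the fewest counts, 249 to 287 per library, which limits what can be seen: counting alone gives a coefficient of variation of 6.23% in shPRSS22 and 6.15% in shCtrl. The ABCA1 window, at chr9:104928156-104928405 on the minus strand, is shown because it holds the LXR direct repeat, with 2 mismatches and on the strand opposite the gene, 69 to 54 bases before the start, and an E-box 147 bases before it, both in capitals.
ABCA1: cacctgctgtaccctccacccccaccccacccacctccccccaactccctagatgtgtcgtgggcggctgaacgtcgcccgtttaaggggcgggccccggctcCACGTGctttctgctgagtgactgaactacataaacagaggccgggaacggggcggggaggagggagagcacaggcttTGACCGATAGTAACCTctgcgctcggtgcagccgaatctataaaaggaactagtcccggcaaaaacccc

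NR1H2, on the plus strand at chr19:50329653-50382982, was the member called lower. It stood at 30.8, 33.2 and 32.1 CPM in shPRSS22 replicates 1 to 3, against 35.5, 37.9 and 38.1 CPM in shCtrl replicates 1 to 3. Every shPRSS22 library was below every shCtrl library. The means were 32.0 ± 1.22 CPM in shPRSS22 and 37.2 ± 1.45 CPM in shCtrl (SD, n = 3 each; log2 fold change -0.22, SE 0.06), and the call was kept in all 11 alternatives run, with log2 fold changes between -0.25 and -0.19. The other LXR gene, NR1H3, was not called (log2 fold change 0.03, SE 0.11; edgeR quasi-likelihood test, adjusted p = 0.852) and stood at 12.8 ± 1.58 TPM in shPRSS22 and 12.1 ± 1.32 TPM in shCtrl, below NR1H2 at 24.4 ± 0.497 TPM in shPRSS22 and 28.1 ± 1.13 TPM in shCtrl (SD, n = 3 each). Of 9 LXR partners, corepressors and targets tested, RXRB, a shared dimer partner (-0.22, SE 0.05; adjusted p = 8.40e-04), and MYLIP, the LXR-induced ligase that degrades the LDL receptor (-0.16, SE 0.05; adjusted p = 0.0159), fell. That is 22.2% of the 9 called lower, near the 19.3% of all tested genes, and the MYLIP call was lost in 4 of 11 alternatives.

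In shCtrl the order of the 9 genes by TPM was NPC2, OSBP, GRAMD1A, NPC1, NR1H2, SOAT1, ABCG1, GRAMD1B and ABCA1, and no neighbours in it overlapped between libraries. In shPRSS22 the order was NPC2, OSBP, NPC1, GRAMD1A, SOAT1, NR1H2, GRAMD1B, ABCG1 and ABCA1, and only NPC1 and GRAMD1A overlapped. The nearest libraries were close for SOAT1 above NR1H2, 25.0 against 24.7 TPM, and for GRAMD1B above ABCG1, 11.3 against 10.8 TPM. These places rest on the implied lengths of SOAT1 and ABCG1 given above. The summed TPM of the 9 genes was 458 ± 4.50 in shPRSS22 and 421 ± 10.1 in shCtrl (SD, n = 3 each), of which NPC2 took 53.3 ± 0.606% in shPRSS22 and 54.3 ± 0.816% in shCtrl.

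**Figure D3:**
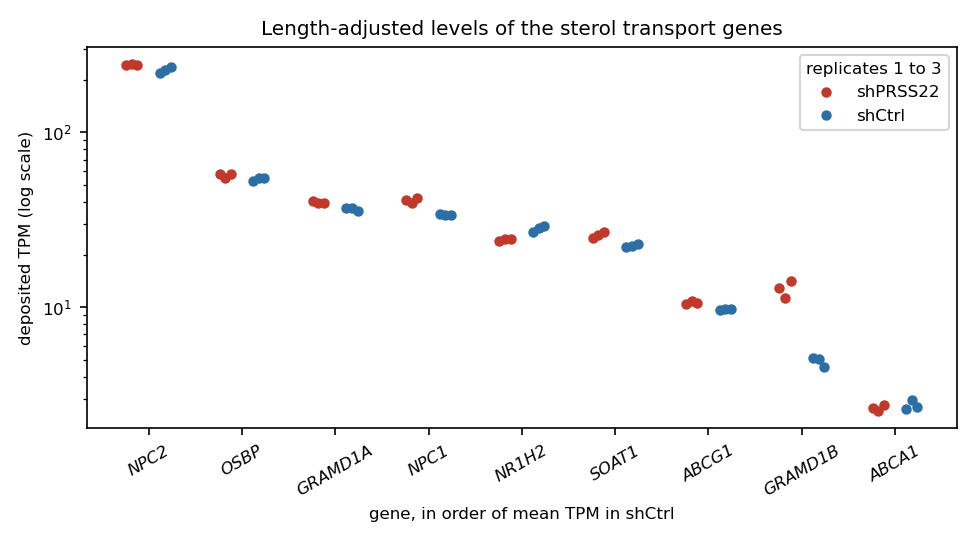
Deposited TPM of the 9 genes on a log axis, ordered by the shCtrl mean, with shPRSS22 replicates (red) left of shCtrl replicates (blue). Levels run between NPC2, at 244 TPM in shPRSS22 and 229 TPM in shCtrl, and ABCA1, at 2.66 TPM in shPRSS22 and 2.76 TPM in shCtrl. In shPRSS22 GRAMD1B passes ABCG1 narrowly, its lowest library being at 11.3 TPM and the highest of ABCG1 at 10.8 TPM.

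Around these 9 genes, 77 other genes of sterol transport and homeostasis were listed by role, of which 68 had enough counts to be tested. In shPRSS22 20 of the 68 were called higher (29.4%, against 19.9% of all tested genes) and 5 lower (7.35%, against 19.3%), with a median log2 fold change of 0.03 against -0.01. DESeq2 called 18 higher and 3 lower, without GRAMD4 and MYLIP among the genes below. Leaving out each library in turn gave 18 to 21 higher and 4 to 6 lower. No test of the list as a whole was made.

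The role with the most calls was sterol supply. Of 10 genes of SREBP control, synthesis and uptake 7 rose (70%, against 19.9% of all tested genes) and none fell. INSIG1, which holds SREBP in the endoplasmic reticulum, rose most, at 29.3 ± 2.94 CPM in shPRSS22 and 18.2 ± 0.916 CPM in shCtrl (log2 fold change 0.69, SE 0.07; edgeR quasi-likelihood test, adjusted p = 7.50e-09). SREBF2, the SREBP of cholesterol synthesis, rose by 0.28 on the log2 scale and squalene epoxidase, SQLE, by 0.35. Of 4 tested genes listed as START domain carriers, 50% were called higher, against 19.9% of all tested genes, and none lower. STARD4, a soluble cholesterol carrier, rose to 152 ± 1.27 CPM in shPRSS22, against 114 ± 0.755 CPM in shCtrl (0.42, SE 0.04; adjusted p = 4.23e-11). STARD3NL, which rose by 0.27, is a late endosomal tethering protein and was listed there by its symbol only.

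Genes of membrane contact sites and of the phosphoinositide that drives OSBP exchange rose in 5 of 10 tested members (50%, against 19.9% of all tested genes). None fell, though PI4K2B was called lower without shPRSS22 replicate 1. The genes that rose were PI4KB, the Golgi kinase that makes this lipid (0.30, SE 0.05; edgeR quasi-likelihood test, adjusted p = 1.31e-05), PI4K2A (0.25), PI4KA (0.14) and the contact site proteins MOSPD1 (0.28) and MOSPD2 (0.24). The PI4KA call was lost in 4 of 11 alternatives. VAPA and VAPB, the endoplasmic reticulum anchors of OSBP, were not called, with log2 fold changes of 0.07 and -0.04, but VAPA was called higher without shPRSS22 replicate 3 (0.10, adjusted p = 0.0201). Among 11 relatives of OSBP, OSBPL6 (0.27), OSBPL10 (0.20) and OSBPL2 (0.20) rose. OSBPL1A, a late endosomal member, fell to 24.8 ± 1.43 CPM in shPRSS22, against 31.1 ± 1.39 CPM in shCtrl (-0.33, SE 0.06; adjusted p = 1.55e-04). Of the 11, 27.3% were called higher, against 19.9% of all tested genes, and 9.09% lower, against 19.3%. In either direction 36.4% were called, against 39.1% of all tested genes.

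Of 4 tested genes of sterol ester synthesis, hydrolysis and storage, the lipid droplet coat genes PLIN2 (log2 fold change 0.41, SE 0.07; edgeR quasi-likelihood test, adjusted p = 2.20e-05) and PLIN3 (0.35, SE 0.03; adjusted p = 1.07e-09) rose and none fell. That is 50% of the 4 called higher, against 19.9% of all tested genes. SULT2B1, a sterol sulfotransferase, had the largest rise of the 68, at 5.75 ± 0.511 CPM in shPRSS22 and 2.74 ± 0.457 CPM in shCtrl (1.07, SE 0.16; adjusted p = 3.76e-06), while CYP27A1, the other oxysterol enzyme tested, was not called. That is 50% of the 2 called higher, against 19.9% of all tested genes. Of 8 endolysosomal genes, LAMP1, a lysosomal membrane glycoprotein, fell (-0.20, SE 0.04; adjusted p = 5.02e-05). That is 12.5% of the 8 called lower, against 19.3% of all tested genes. Of 4 GRAM domain relatives, GRAMD4 fell (-0.22, SE 0.06; adjusted p = 0.00514). That is 25% of the 4 called lower, against 19.3% of all tested genes. Without shPRSS22 replicate 3 GRAMD2A was also called lower. None of 3 other efflux genes and none of 3 Patched family genes was called, against 39.1% of all tested genes in either direction. With so few genes in each role, that share is a weak comparison. ABCA7, an efflux transporter, was called higher without shCtrl replicate 1 (log2 fold change 0.20, against 0.10 with it).

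**Figure D4:**
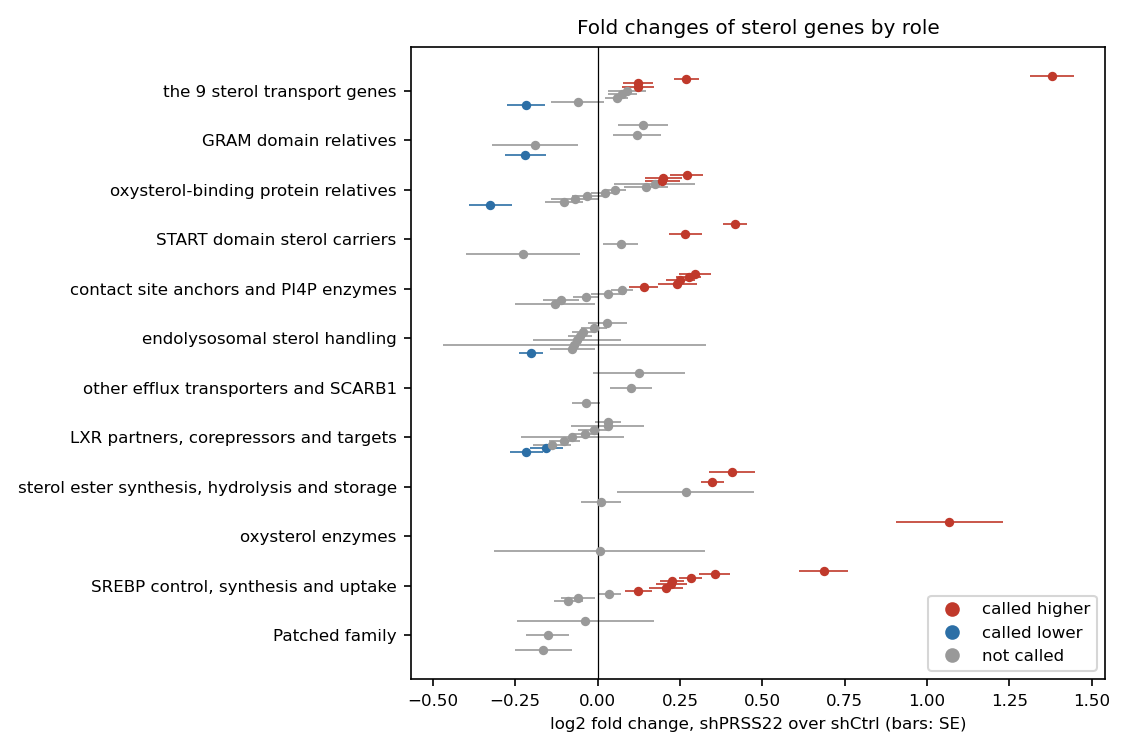
Log2 fold change of shPRSS22 over shCtrl, with SE bars, for the 9 sterol transport genes in the top row and for 68 other sterol genes by role below, in red where called higher, blue where called lower and grey where not called. GRAMD1B (1.38) is farthest right, followed by SULT2B1 (1.07) and INSIG1 (0.69).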

How the data were processed

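The submitters' processing notes name the build GRCh38.p13 and, with no role stated, R 4.3.1, DESeq2 1.4.5, the quantifier RSEM 1.3.1, the aligners Bowtie2 2.3.4.3 and HISAT2 2.2.1, and FastQC 0.12.1. Per the file headers, the authors deposited read counts, FPKM, TPM and normalised read counts per library, with their own log2 fold change, p-value and q-value per gene. The deposited read counts are estimated counts, with decimals in 2081 to 2162 genes per library, and were rounded. The deposited TPM was used for levels between genes, and the deposited FPKM for implied lengths and as an alternative. The authors' normalised counts, a scaled signal, were not used.

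Genes were tested across all 6 libraries with edgeR 4.0.16 in R 4.3.3 (TMM, filterByExpr, robust quasi-likelihood F test, two-sided, Benjamini-Hochberg over 13104 genes, threshold 0.05), checked on simulated data. The SE is the log2 fold change divided by the square root of F. Alternatives were DESeq2 1.42.0, RLE scaling, other filters, a replicate block and leaving out each library. Replicate pairs differed by more than counting noise (chi-square 1.80 to 3.05 per gene), so each library counted once. That is a mean over genes: for the 9 genes, the coefficient of variation exceeded counting in only 6 of 18 gene and group pairs. Other sterol genes are named as the largest rise and fall past the threshold in each role, plus up to 2 more by adjusted p; GRAMD1C, GRAMD2A, NR1H3, RMC1, VAPA, VAPB, PI4K2B, ABCA7, LPCAT3, CYP27A1 and the remaining called genes were named after their values were seen. The 9 genes, lists and motifs were chosen with earlier results of these data known. CH25H was not analysed here.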

Additional observations from a re-analysis of the deposited data

How the results depend on the processing

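All 11 alternatives kept the calls of GRAMD1B, NPC1 and NR1H2, with the log2 fold change of GRAMD1B between 1.31 and 1.44. No gene called both here and in an alternative changed direction. With DESeq2, 1637 genes were lower, where edgeR gave 2523, and 1760 were higher, where edgeR gave 2603; 2 of the 9 members were higher and 3 of the other sterol genes lower. Without 1 library, 2161 to 2484 genes were higher and 2079 to 2271 lower, 2 to 3 of the 9 members were higher and 1 lower, and 18 to 21 of the other sterol genes were higher and 4 to 6 lower. The fits without a library have fewer samples; the cause of the DESeq2 losses was not tested. The other settings left the counts within 1.5 times. FPKM in place of TPM is no independent check of the order of the 9 genes, since within a library both differ by 1 constant factor.

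Correlations of deviations from the group means were 0.0194, 0.0329 and 0.0908 between libraries of equal replicate number, 1 to 3. Between libraries of unequal number they were -0.115 to 0.0839. All were small, and they cannot show whether equal numbers share a culture or day. With the replicate number as a block, 2782 genes were higher and 2747 lower, and among the 9 members 4 were higher and 1 lower. Among the other sterol genes 21 were then higher and 6 lower, with VAPA called higher (0.07, adjusted p = 0.0378) and LPCAT3 lower (-0.14, adjusted p = 0.0428) in addition. Depth limits ABCA1 most, where counting alone gives a coefficient of variation of 6.23% in shPRSS22 and 6.15% in shCtrl.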
